A study of Homo sapiens with 12 samples.

Results

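Mammary epithelial cells labelled Cas/ErbB2 were compared with cells labelled ErbB2 alone, on 3 bead arrays each, 6 of the 12 arrays of the series. The members were taken from the sample titles: Cas/ErbB2 1 to 3 carry array names that start with C+, and ErbB2 1 to 3 carry names that start with M+. Every sample was MCF10A, a non-tumorigenic human mammary epithelial line, described as modified, with the genotype given only as ErbB2 or Cas/ErbB2. The labels state neither how either protein was introduced or activated, nor whether a line was 1 clone, nor what the signs in the array names mean. Both groups therefore share ErbB2 by label, and the difference between them is that 1 of them is also labelled Cas. The 3 control arrays of the series entered only 1 alternative fit, over all 12 arrays. The 3 arrays labelled Cas, with the same line and the genotype Cas, were background corrected and normalized together with these 6. Otherwise they served only to share the estimate of spread and to give another level. The series title speaks of invasive signatures that depend on p130Cas and ErbB2, and this comparison asks which transcripts went with Cas on top of ErbB2.

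ErbB2, a relative of the EGF receptor with tyrosine kinase activity, signals through ERK and PI3-kinase. p130Cas, the product of BCAR1, is an adaptor at focal adhesions: integrin engagement lets FAK and Src phosphorylate it, and it then recruits Crk and DOCK1 to activate Rac. Amplified ErbB2 drives a class of breast cancers, and p130Cas has been studied as a partner that aids growth and invasion of ErbB2-positive mammary cells.

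Values are normalized signals on the log2 scale of 1 probe per gene, so that 1 unit is a doubling. A level of 1 probe is not comparable with that of another probe. Differences are Cas/ErbB2 minus ErbB2, with the standard error of the fit after ± (n = 3 arrays in each group). Adjusted p is limma's with Benjamini-Hochberg adjustment over 10653 items (8027 named genes and 2626 unnamed probes). An item was called at adjusted p under 0.05, and "rose" and "fell" are used only of called genes. A probe counted as detected on an array at detection p under 0.05. The labels do not state whether the replicates of a group were grown as independent cultures, and the p-values then reflect only the variation among these arrays, possibly technical. With 3 arrays against 3 an exact permutation test cannot give a p below 0.1. In whole-culture RNA, a smaller share of cells with a transcript and less transcript per cell cannot be told apart.

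Cas/ErbB2 replicate 3 stood apart from the other arrays. It correlated with the other Cas/ErbB2 arrays at 0.9688 to 0.9703 (Pearson's r across items), whereas Cas/ErbB2 1 and 2 correlated with each other at 0.9853 and the ErbB2 arrays among themselves at 0.9856 to 0.9903. Its mean raw signal was 2094.5, against 1274 and 1247.2 on Cas/ErbB2 1 and 2 and 1355.2 to 1706.1 on the ErbB2 arrays. It detected 15984 probes, against 12864 and 13350 on Cas/ErbB2 1 and 2 and 14099 to 15084 on the ErbB2 arrays. For 12 of the 15 largest falls it was the highest Cas/ErbB2 array and so the nearest to ErbB2, and counts over all items and for most gene lists are given with and without it. With 3 arrays a group, precision is limited throughout.

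The targeted genes were read first. BCAR1, which encodes p130Cas, read 9.79, 9.33 and 8.80 on the ErbB2 arrays and 8.95, 9.22 and 9.30 on the Cas/ErbB2 arrays. The groups overlapped, and the difference was -0.15 ± 0.23 (adjusted p = 0.76). ERBB2 read 9.995, 9.75 and 9.96 on the ErbB2 arrays, 8.95, 8.92 and 9.43 on the Cas/ErbB2 arrays and 10.35, 10.23 and 9.85 on the Cas arrays. All 3 Cas/ErbB2 arrays lay below all arrays of the other groups, and ERBB2 fell by 0.80 ± 0.18 (adjusted p = 0.0321), a call that was lost over the 6 arrays alone (adjusted p = 0.0654). The other 2 ERBB2 probes and the probe of NGFR, whose extracellular part is joined to ErbB2 in published inducible receptors, were undetected on all 9 arrays. Which of these probes lie in an introduced sequence is not given, so they do not show whether such a sequence was present, and the BCAR1 probe was not higher in the cells labelled Cas/ErbB2.

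The cells carried a basal epithelial profile in both groups. Of 5 basal markers with a probe, KRT5, KRT14, ITGB4, LAMB3 and CDH3 were all detected on all 6 arrays, with a summed linear signal of 84868 to 100792 on the ErbB2 arrays and 93713 to 121965 on the Cas/ErbB2 arrays. Among 11 luminal markers, KRT8, KRT18, CD24, MUC1 and EPCAM were detected on all 6 arrays, and KRT19, ESR1, FOXA1 and ELF5 on none. Their summed signal was 18778 to 22934 in ErbB2 and 10795 to 14651 in Cas/ErbB2, and CD24 (-0.70 ± 0.16, adjusted p = 0.0397) and MUC1 (-0.86 ± 0.20, adjusted p = 0.0397) fell. Both calls were lost with the 6 arrays alone (adjusted p = 0.0741 and 0.0628), that of CD24 also with all 12 arrays (adjusted p = 0.0876), and the keratins KRT18 and KRT8 were at 0.21 and 0.08. Of 6 leukocyte markers with a probe, PTPRC, CD3E and LYZ were undetected on all 6 arrays, and CD68, CD14 and ITGB2 were detected, with a summed signal of 5635 to 6366 in ErbB2 and 8014 to 11450 in Cas/ErbB2. CD68 rose by 0.80 ± 0.16, a call lost with the 6 arrays alone (adjusted p = 0.0516). COL1A2, COL3A1, PDGFRA, PDGFRB and THY1 of the fibroblast list were undetected on all 6 arrays, and the collagen-binding proteoglycan DCN fell by 1.14 ± 0.26 (adjusted p = 0.037, and 0.0934 with the 6 arrays alone). The DCN probe that was read was detected on 2 of 3 Cas/ErbB2 arrays. The sum of the 2 measured fibroblast markers was 919 to 1381 in ErbB2 and 528 to 929 in Cas/ErbB2.

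In all, 495 of 10653 items were called (4.65%), 223 higher in Cas/ErbB2 (2.09%) and 272 lower (2.55%). Every called item had groups that did not overlap, which was also true of 1054 items in the higher direction (9.89%) and 1324 in the lower (12.4%) among all items. At least a doubling was seen for 62 of the higher items, and at least a halving for 83 of the lower. The median difference over all items was -0.02. More items entered through ErbB2: 1362 items passed only through the ErbB2 arrays and 520 only through the Cas/ErbB2 arrays. Among the 8771 items detected on all 6 arrays, 199 were higher (2.27%) and 170 lower (1.94%), so rises outnumbered falls there.

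**Figure D1:**
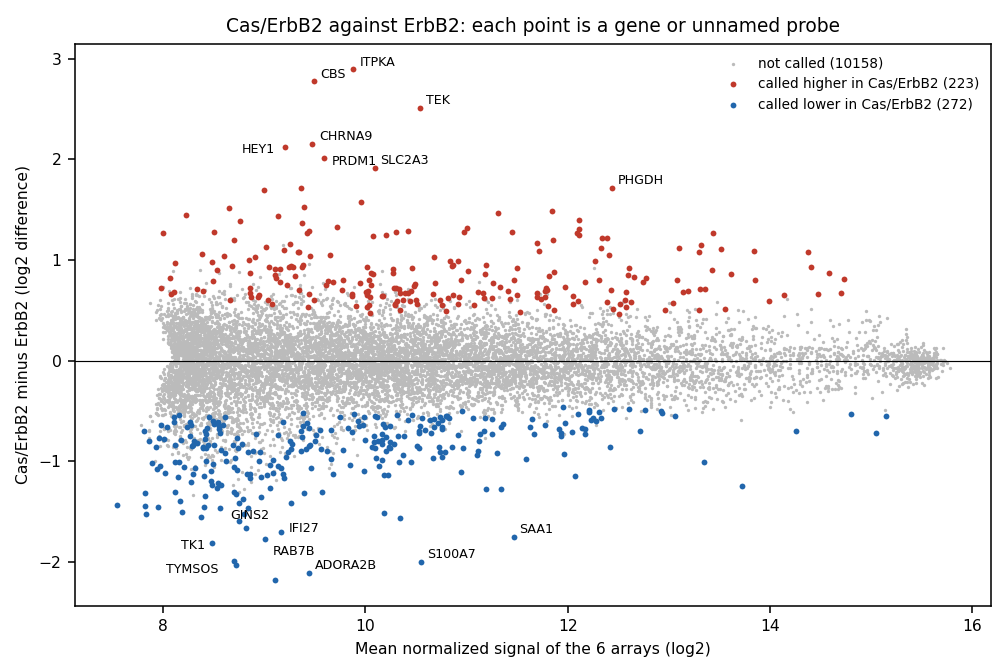
Cas/ErbB2 minus ErbB2 (vertical axis, log2 difference of group means) against the mean normalized signal of the 6 arrays (horizontal axis, log2), 1 point per gene or unnamed probe. Red points were called higher (223), blue points lower (272), and grey points were not called. The largest rises are ITPKA, CBS and TEK, and many of the falls lie near the low end of the signal range.

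The counts differed between fits. Without Cas/ErbB2 replicate 3, 674 items were higher (6.17%) and 1004 lower (9.19%) of 10922, among them 222 of the 223 and all 272 of the reported calls, and no called item changed direction. With the 6 arrays alone 100 items were higher (0.939%) and 76 lower (0.713%), of which 98 and 75 were among the reported calls. Counts of list members given below for the reported fit, or for either of these, are to be set beside that fit's shares over all items. The gene lists were chosen with earlier results of these data known, so these shares are a description with no test. With all 12 arrays 284 were higher and 383 lower, of which 216 and 261 were among the reported calls. Leaving out an ErbB2 array gave 82 to 130 higher and 67 to 128 lower items. Scaling each array to 1 median in place of quantile normalization gave 4 higher and 9 lower items, with a median over all items of -0.21; the 4 rises were ITPKA, CBS, TEK and SLC2A3, while S100A7, SAA1, SAA2, IFI27, CALML3 and H4C3 were among the falls.

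**Figure D2:**
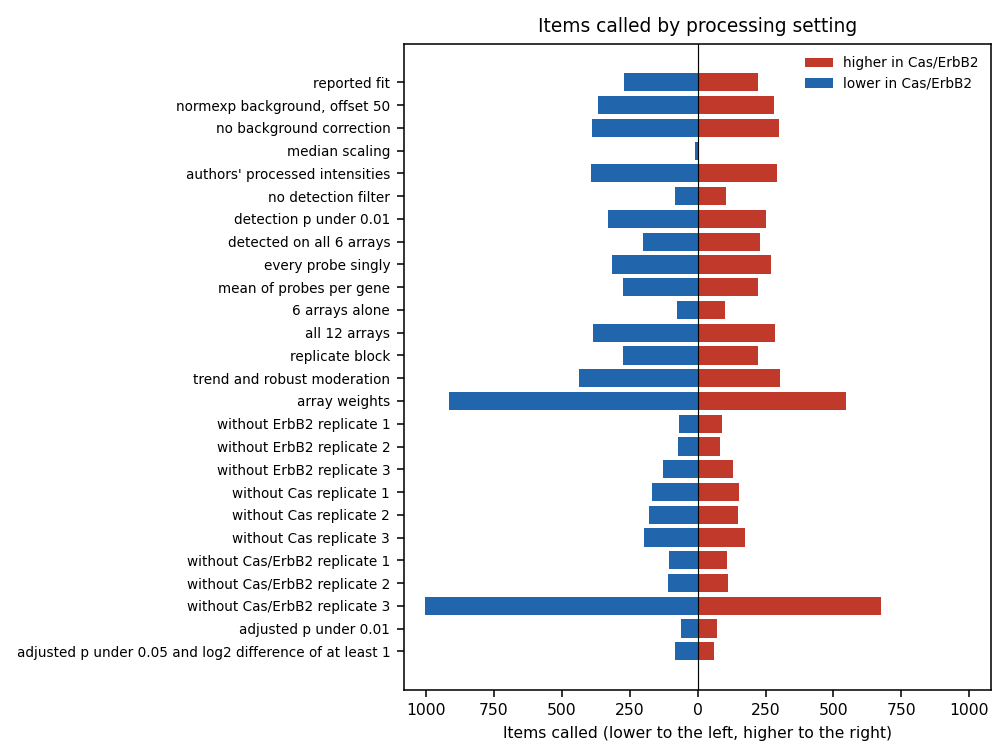
Number of items called higher (red, to the right) and lower (blue, to the left) in Cas/ErbB2 under each processing setting, 1 bar pair per setting. The reported fit gave 223 and 272. The widest bars come from the fits without Cas/ErbB2 replicate 3 (674 and 1004) and with array weights (547 and 914), and the narrowest from median scaling (4 and 9).

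The 15 largest rises held transcripts of a signalling kinase, a receptor, transcription factors and metabolic enzymes. ITPKA, a kinase of inositol trisphosphate that also bundles actin, read 8.32, 8.32 and 8.66 on the ErbB2 arrays and 11.83, 11.51 and 10.64 on the Cas/ErbB2 arrays. The groups lay apart by about 2 units, with Cas/ErbB2 3 the lowest of its group, and ITPKA rose by 2.89 ± 0.26 (adjusted p = 6.14e-04). TEK encodes the angiopoietin receptor TIE2 and read 9.16, 9.40 and 9.29 in ErbB2 and 11.91, 11.83 and 11.66 in Cas/ErbB2. Replicates lay close together in both groups, TEK rose by 2.51 ± 0.14 (adjusted p = 2.38e-05), and its other probe rose by 2.79. TEK was also on the endothelial marker list: of the other markers there PECAM1 was detected on all 6 arrays with a difference of -0.05, and CDH5, VWF and KDR were detected on none.

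The nicotinic receptor subunit CHRNA9 read 8.04, 8.35 and 8.79 in ErbB2, detected on 2 of 3 arrays, and 10.30, 10.34 and 10.99 in Cas/ErbB2. It rose by 2.15 ± 0.22 (adjusted p = 9.14e-04), and its other probe by 1.41. HEY1, a repressor induced by Notch, rose from 8.31, 7.93 and 8.19, detected on 2 of 3 ErbB2 arrays, to 10.21, 10.10 and 10.48, a difference of 2.12 ± 0.14 (adjusted p = 8.44e-05). The repressor PRDM1, known as Blimp-1 in B cells, rose from 8.68, 8.38 and 8.68 to 10.68, 10.34 and 10.77, by 2.02 ± 0.19. The 2 groups were far apart for both regulators. SLC2A3, the glucose transporter GLUT3, read 8.73, 9.28 and 9.39 in ErbB2 and 11.18, 11.29 and 10.69 in Cas/ErbB2 and rose by 1.92 ± 0.20 (adjusted p = 0.00116). It was the 1 called member of 30 measured genes of glycolysis and the hypoxia response, whose median was 0.09, and 3 were called higher without Cas/ErbB2 replicate 3.

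Among the rest of the 15, the collagen VI chain COL6A3 rose by 1.71 ± 0.22, and its ErbB2 arrays (8.23, 8.19 and 9.12) were spread more widely than its Cas/ErbB2 arrays. The trypsin gene PRSS3 rose by 1.69 ± 0.17, detected on 2 of 3 ErbB2 arrays; trypsin genes are close in sequence, so its probe may read others. VSTM2L rose by 1.57 ± 0.19, the aldehyde oxidase AOX1 by 1.52 ± 0.22 and INSC, an adaptor of spindle orientation, by 1.47 ± 0.17. The neuronal adhesion protein CNTN3 was not detected on any ErbB2 array and read 9.43, 8.81 and 9.99 in Cas/ErbB2, at least 2.63-fold higher, a bound set by the lowest signal detected on each ErbB2 array or the probe's own signal, whichever was higher. All 15 of these rises were called with the 6 arrays alone as well. The Cas arrays lay below the ErbB2 arrays for 14 of the 15, ITPKA being the exception.

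**Figure D3:**
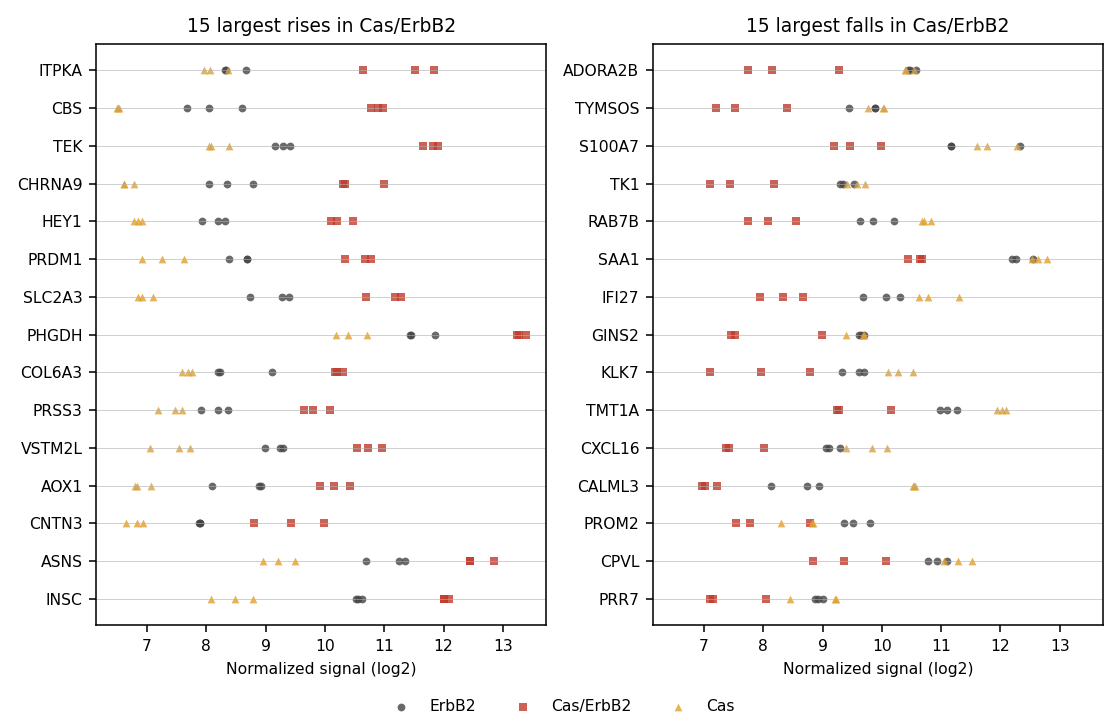
Normalized signal (log2) on each array for the 15 largest rises (left) and the 15 largest falls (right), 1 row per gene. Circles are ErbB2 arrays, squares Cas/ErbB2 arrays and triangles Cas arrays, 3 each. Squares lie right of all circles in the left panel and left of all circles in the right panel, and the squares are more spread in the right panel.

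Enzymes that make serine, one-carbon units, cysteine and asparagine held 3 of the 15 largest rises. Cells build serine from a glycolytic intermediate through PHGDH, PSAT1 and PSPH, pass its carbon to folate through SHMT2 and MTHFD2, and spend it on cysteine through CBS. Of 14 measured members 5 rose, against 2.09% of all items, and none fell, with a median of 0.34 against -0.02 for all items. PHGDH, the first enzyme of serine synthesis, read 11.46, 11.85 and 11.44 in ErbB2 and 13.28, 13.39 and 13.23 in Cas/ErbB2 and rose by 1.72 ± 0.17 (adjusted p = 7.55e-04). PSAT1, the next enzyme, read 11.54, 12.05 and 11.60 in ErbB2 and 12.81, 12.99 and 13.06 in Cas/ErbB2 and rose by 1.22 ± 0.16 (adjusted p = 0.00302). For both enzymes the lowest Cas/ErbB2 array lay above the highest ErbB2 array.

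CBS, which joins serine to homocysteine, was detected on 1 of 3 ErbB2 arrays, read 8.05, 8.60 and 7.68 on the 3, and read 10.90, 10.98 and 10.78 in Cas/ErbB2. It rose by 2.77 ± 0.20 (adjusted p = 8.44e-05), partly against undetected signal. MTHFD2, the mitochondrial folate dehydrogenase, read 10.92, 11.17 and 11.25 in ErbB2 and 12.06, 12.25 and 12.52 in Cas/ErbB2 and rose by 1.17 ± 0.15 (adjusted p = 0.0025). ASNS, asparagine synthetase, read 10.70, 11.36 and 11.25 in ErbB2 and 12.45, 12.45 and 12.85 in Cas/ErbB2, rose by 1.48 ± 0.21 (adjusted p = 0.00441), and its other probe rose by 1.31. All 5 rises were called with the 6 arrays alone too.

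The remaining members did not pass the test. PSPH, the last step of serine synthesis, was at 0.50 (adjusted p = 0.088), SHMT2 at 0.31 and MTHFD1L at 0.28. SHMT1, the cytosolic partner of SHMT2, was at -1.24 (adjusted p = 0.084) and detected on 1 of 3 Cas/ErbB2 arrays. Without Cas/ErbB2 replicate 3 the list held 6 rises and 3 falls. Of 10 measured amino acid transporters none was called, with a median of 0.19, and without that array 1 was called higher and 2 lower.

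ASNS is known for an amino acid response element, the site at which ATF4 binds under amino acid shortage, and its promoter is shown for that reason. The sequence is the 250 bases before a RefSeq transcript start (GRCh38.p14, chr7:97872409-97872658, minus strand), with matches to TGATGNAA on either strand in capitals.
ASNS: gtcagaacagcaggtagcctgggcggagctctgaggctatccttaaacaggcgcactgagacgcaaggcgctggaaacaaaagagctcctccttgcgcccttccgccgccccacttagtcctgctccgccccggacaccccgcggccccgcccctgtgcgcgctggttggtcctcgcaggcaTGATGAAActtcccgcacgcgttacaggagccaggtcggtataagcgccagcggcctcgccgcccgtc
The match spans bases 68 to 61 before the start. Among the 5 genes of the list that rose, 1 of 8 promoters in the RefSeq table held TGATGNAA, that of ASNS, against 3.1% of all 35116 promoters of the same length. A match of letters describes the sequence and is not evidence of binding.

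Aminoacyl-tRNA synthetases, which load amino acids onto tRNAs, changed in part: 6 of 31 measured genes rose, against 2.09% of all items, and none fell, with a median of 0.10. All 6 serve the cytosol, and GARS1 the mitochondrion as well. GARS1, for glycine, read 12.74, 13.04 and 13.14 in ErbB2 and 13.88, 13.88 and 13.87 in Cas/ErbB2 and rose by 0.90 ± 0.13 (adjusted p = 0.00487). The Cas/ErbB2 arrays were almost equal and lay above every ErbB2 array. MARS1 rose by 0.77 ± 0.16, YARS1 by 0.70 ± 0.12, WARS1 by 0.66 ± 0.14, AARS1 by 0.60 and TARS1 by 0.57. None of the members whose symbols end in 2, which are mitochondrial enzymes, was called, and they lay between -0.49 (WARS2) and 0.56 (VARS2). With the 6 arrays alone 2 of the 31 were called, GARS1 and YARS1, and without Cas/ErbB2 replicate 3, 8 were higher and 2 lower.

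Stress regulators that respond through ATF4 and CHOP also held rises. Of 15 measured, 2 rose, against 2.09% of all items, none fell, and the median was 0.44. Of the 15, 2 passed the filter only through the Cas/ErbB2 arrays. Over the 13 detected on all 6 arrays the median was 0.30. Both rises were called with the 6 arrays alone, and 5 genes were called higher without Cas/ErbB2 replicate 3. STC2, a secreted glycoprotein induced by endoplasmic reticulum stress, read 10.17, 10.28 and 10.54 in ErbB2 and 11.57, 11.60 and 11.67 in Cas/ErbB2 and rose by 1.28 ± 0.15 (adjusted p = 0.00191). The pseudokinase TRIB3 read 11.30, 11.44 and 11.52 in ErbB2 and 12.38, 12.22 and 12.29 in Cas/ErbB2 and rose by 0.88 ± 0.15 (adjusted p = 0.00853). Neither gene's groups overlapped. ATF4 itself was at 0.06 (adjusted p = 0.83), and CHOP, encoded by DDIT3, at 0.87 (adjusted p = 0.051), detected on 2 of 3 ErbB2 arrays.

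On the list of endoplasmic reticulum chaperones and their regulators 3 of 15 measured genes rose, against 2.09% of all items, with a median of 0.21. These were XBP1 and the chaperones HSPA5 and HYOU1. XBP1, a transcription factor of the unfolded protein response, read 11.97, 12.15 and 12.32 in ErbB2 and 12.998, 13.21 and 12.998 in Cas/ErbB2 and rose by 0.92 ± 0.16, and by 0.80 on its other probe. HSPA5, the chaperone BiP, rose by 0.79 ± 0.18 and HYOU1 by 0.63 ± 0.14. The rises of HSPA5 and HYOU1 were not called with the 6 arrays alone (adjusted p = 0.0885 and 0.0837), and without Cas/ErbB2 replicate 3 the list held 4 rises. Of 14 heat shock proteins none was called, with a median of 0.0013, and 1 was called lower without that array.

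Inhibitors that ERK signalling induces against itself rose in part. Of 12 measured Sprouty, SPRED and DUSP genes 3 rose, against 2.09% of all items, and none fell, with a median of 0.27. The same count was called with the 6 arrays alone and without Cas/ErbB2 replicate 3. SPRY4, a Sprouty that dampens receptor kinase signalling, read 11.69, 11.21 and 11.57 in ErbB2 and 12.95, 12.78 and 12.49 in Cas/ErbB2 and rose by 1.25 ± 0.18 (adjusted p = 0.00512). SPRY2 read 10.22, 10.12 and 10.13 in ErbB2 and 11.08, 11.19 and 11.31 in Cas/ErbB2 and rose by 1.03 ± 0.13 (adjusted p = 0.00215). Groups lay apart for both Sprouty genes. DUSP5, a nuclear ERK phosphatase, rose by 0.95 ± 0.15, whereas DUSP6, the cytoplasmic one, was at 0.31 (adjusted p = 0.21) and SPRY1 at -0.09.

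Early genes induced by ERK rose for 3 of 18 measured members, against 2.09% of all items, with a median of 0.25. PHLDA1 rose by 0.85 ± 0.15, the survival factor MCL1 by 0.80 ± 0.14 and IER3 by 0.58 ± 0.13. The other probe of MCL1 was at 0.66 and not called (adjusted p = 0.053), whereas that of PHLDA1 rose by 1.37. FOS was at 0.42, EGR1 at 0.23, FOSL1 at 0.26 and MYC at 0.11, none of them called. IER3 lost its call with the 6 arrays alone and with all 12 arrays (adjusted p = 0.0841 and 0.0508), which left 2 rises, and without Cas/ErbB2 replicate 3, 7 were called higher. Among 7 measured genes of the ErbB list, the ligand TGFA rose by 0.80 ± 0.20 and ERRFI1, a protein that binds and inhibits ErbB kinases, by 0.68 ± 0.13. ERBB2 fell as given above, EGFR was at -0.11, ERBB3 at -0.14 and the ligand HBEGF at -0.02. The lowest difference of the list was -0.91, for a member that was not called, and the median was -0.11. None of the 3 calls was kept with the 6 arrays alone, and without Cas/ErbB2 replicate 3 the list held 2 rises and 2 falls.

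**Figure D4:**
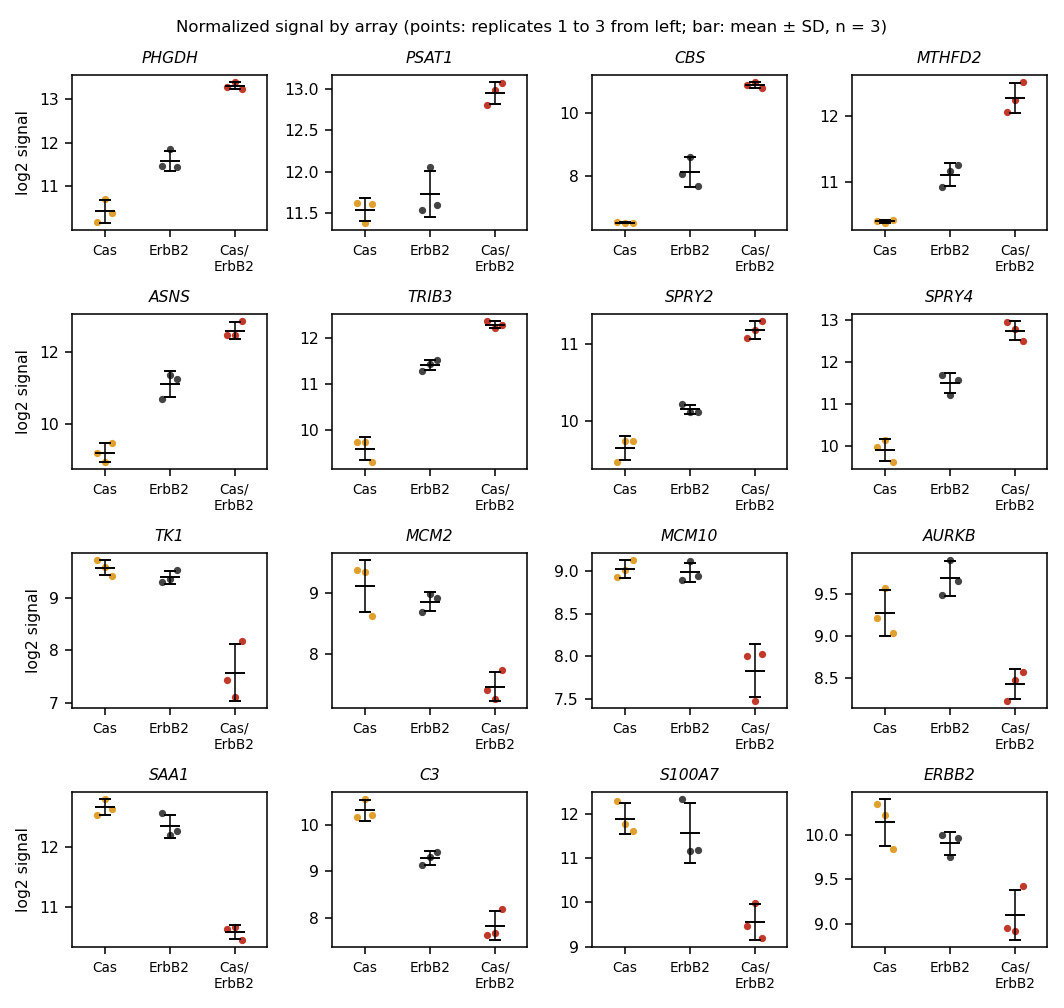
Normalized signal (log2) of 16 genes in the Cas, ErbB2 and Cas/ErbB2 groups, 1 panel per gene with its own axis. Points are replicates 1 to 3 from the left, and bars are the mean ± SD (n = 3). PHGDH, CBS, ASNS, TRIB3 and SPRY4 step up from Cas to ErbB2 to Cas/ErbB2, whereas TK1 and MCM10 lie at like levels in Cas and ErbB2 and lower in Cas/ErbB2.

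Among the partners of p130Cas 1 transcript was called. Of 18 measured genes of its complex, BCAR3, an exchange factor that binds p130Cas, rose by 0.61 ± 0.15 (adjusted p = 0.0496), a call lost with the 6 arrays alone (adjusted p = 0.11). The kinases PTK2 (FAK) and SRC were at 0.13 and 0.06, the adaptor CRKL at -0.01, and the Rac activator DOCK1 at 0.23. PTK2B was at 0.68 (adjusted p = 0.079) and the phosphatase PTPN12 at 0.60 (adjusted p = 0.091). The median of the list was 0.19. None of 17 focal adhesion linkers was called, with values from -0.13 (PARVA) to 0.48 (PARVB) and a median of 0.15. Without Cas/ErbB2 replicate 3, 3 genes of the complex and 2 linkers were called higher, and with the 6 arrays alone none of either list.

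Integrin chains, the receptors that place p130Cas at adhesions, all had positive differences, against 5032 of all 10653 items. They ran from 0.23 (ITGAV) to 1.20 (ITGA5) over 10 measured chains, with a median of 0.45. The fibronectin receptor chain ITGA5 read 11.61, 10.97 and 11.19 in ErbB2 and 12.54, 12.54 and 12.30 in Cas/ErbB2 and rose by 1.20 ± 0.26 (adjusted p = 0.0275). ITGA10, a collagen receptor chain, rose by 0.73 ± 0.18. The other 8 chains were not called, so 2 of 10 rose, against 2.09% of all items. The list held 1 rise with the 6 arrays alone, ITGA5; ITGA10 lost its call there (adjusted p = 0.11) and with all 12 arrays (adjusted p = 0.0543). Without Cas/ErbB2 replicate 3 the list held 6 rises. Among 15 genes of the basement membrane and hemidesmosome, the laminin-332 chain LAMB3 rose by 0.87 ± 0.15 (adjusted p = 0.0108), with a list median of 0.21; without Cas/ErbB2 replicate 3 that list held 3 rises.

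Proteases and inhibitors of the matrix and plasminogen lists rose in part and none of them fell. Of 11 measured matrix proteases and inhibitors 3 rose, against 2.09% of all items, with a median of 0.54. MMP10 rose by 1.13 ± 0.19, the inhibitor TIMP1 by 0.81 ± 0.12 and ADAM19 by 0.64 ± 0.16. MMP10, or stromelysin-2, read 8.88, 8.20 and 8.27 in ErbB2 and 9.82, 9.42 and 9.49 in Cas/ErbB2. MMP1 was at 0.88 (adjusted p = 0.087) and MMP9 at -0.11. In the plasminogen list, 3 of 11 rose, against the same 2.09%. SERPINE2, an inhibitor of plasminogen activators and thrombin, rose by 1.14 ± 0.13 (adjusted p = 0.00151). The urokinase gene PLAU rose by 0.81 ± 0.13 (adjusted p = 0.00641) and the tissue factor inhibitor TFPI by 0.56 ± 0.12. PLAU read 12.80, 12.56 and 12.68 in ErbB2 and 13.44, 13.52 and 13.49 in Cas/ErbB2, with both groups tight. The urokinase receptor PLAUR was at 0.83 (adjusted p = 0.101). Either list held 2 rises with the 6 arrays alone, where ADAM19 and TFPI lost their calls (adjusted p = 0.11 and 0.0801), and 4 without Cas/ErbB2 replicate 3.

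Markers of an epithelial to mesenchymal change held 1 call. SNAI2, the repressor Slug, rose by 0.51 ± 0.11 (adjusted p = 0.027), from 13.23, 13.34 and 13.34 to 13.84, 13.82 and 13.78, and was the 1 called of 12 measured. That call was lost with the 6 arrays alone (adjusted p = 0.0932). VIM was at 0.02, TWIST1 at 0.19 and ZEB2 at -0.09. The list ran from -0.38 to 0.78, neither of them called. Its median was 0.21, and 0.35 over the 8 members detected on all 6 arrays. For 5 of the 12 all Cas/ErbB2 arrays lay above all ErbB2 arrays, against 9.89% of all items, and for none below, against 12.4%. None of 14 cadherins and plaque proteins was called: E-cadherin, CDH1, was at -0.29 (adjusted p = 0.43) and P-cadherin, CDH3, at -0.08. None of 9 keratins was called either, with KRT5 at -0.27 and KRT14 at 0.07. Without Cas/ErbB2 replicate 3 the mesenchymal list held 3 rises and the keratins 2 rises and 1 fall, while no cadherin or plaque protein was called.

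**Figure D5:**
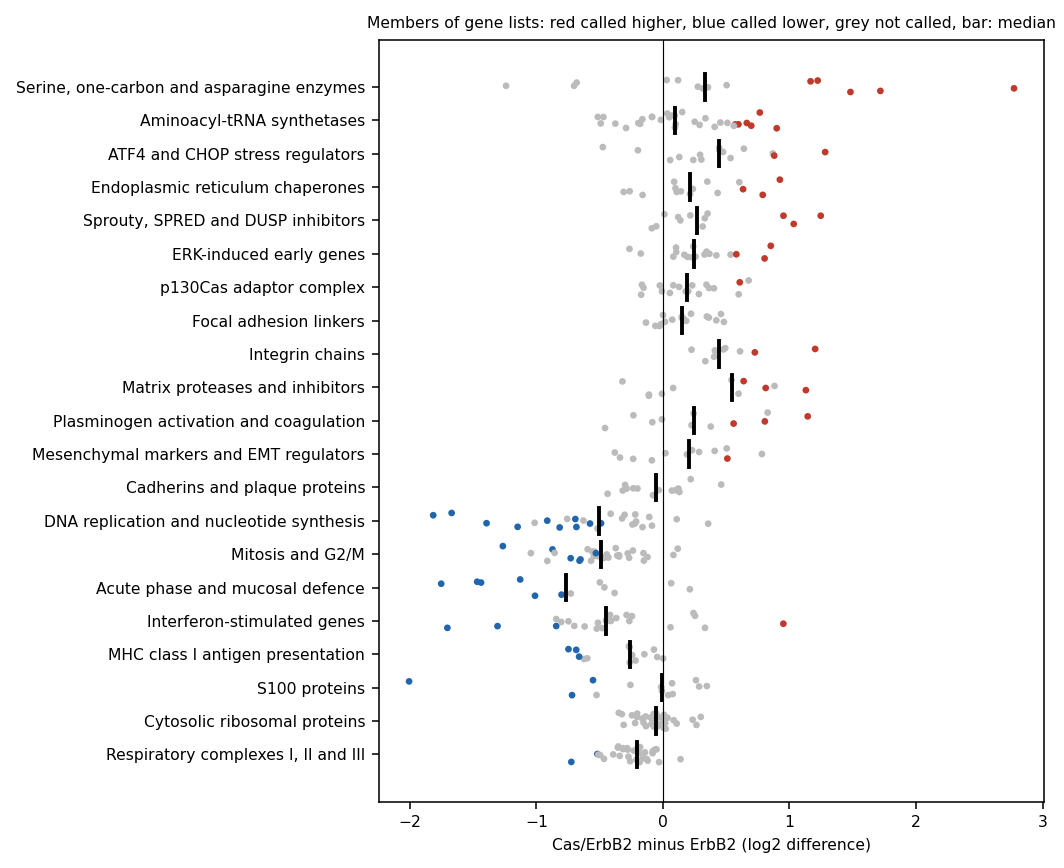
Cas/ErbB2 minus ErbB2 (log2 difference, horizontal axis) for the measured members of 21 gene lists, 1 point per gene, red where called higher, blue where called lower and grey where not called. Black bars are list medians. Bars lie right of 0 for the amino acid, stress, feedback, p130Cas complex, focal adhesion and integrin lists. They lie left of 0 for replication (-0.50), mitosis (-0.49), acute phase (-0.76), interferon (-0.45), MHC class I (-0.26) and respiratory complex genes (-0.21). Slightly left are cadherins and plaque proteins (-0.06), cytosolic ribosomal proteins (-0.06) and S100 proteins (-0.008).

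The 15 largest falls held transcripts of DNA synthesis, epithelial defence and cell surface proteins. ADORA2B, an adenosine receptor, read 10.45, 10.58 and 10.47 on the ErbB2 arrays and 7.74, 8.15 and 9.28 on the Cas/ErbB2 arrays, 2 of which detected it. ErbB2 replicates were close together, the Cas/ErbB2 arrays were widely spread with replicate 3 the highest, and ADORA2B fell by 2.11 ± 0.30 (adjusted p = 0.00481). S100A7, psoriasin, read 12.33, 11.16 and 11.17 in ErbB2 and 9.46, 9.99 and 9.20 in Cas/ErbB2 and fell by 2.01 ± 0.32 (adjusted p = 0.00699); its close copy S100A7A may share the probe. SAA1, serum amyloid A, read 12.56, 12.20 and 12.27 in ErbB2 and 10.64, 10.68 and 10.45 in Cas/ErbB2 and fell by 1.75 ± 0.14 (adjusted p = 2.06e-04). The groups lay apart for both proteins, and SAA1 had the tighter replicates.

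Many of the other falls reached the detection limit. TYMSOS, a non-coding RNA read opposite to and overlapping the start of TYMS, fell by 2.03 ± 0.26, the endosomal GTPase RAB7B by 1.78 ± 0.21 and the interferon-induced IFI27 by 1.70 ± 0.23. TMT1A, a thiol methyltransferase, fell by 1.56 ± 0.22, the chemokine CXCL16 by 1.55 ± 0.21, the carboxypeptidase CPVL by 1.52 ± 0.26 and PRR7 by 1.50 ± 0.27. TYMSOS, RAB7B, CXCL16 and PRR7 were detected on 1 of 3 Cas/ErbB2 arrays and IFI27 on 2. CALML3, an epithelial calmodulin-like protein, read 8.93, 8.74 and 8.12 in ErbB2 and was undetected in Cas/ErbB2, at least 1.45-fold lower. The membrane protein PROM2 fell by 1.53 ± 0.29 and the skin peptidase KLK7 by 1.60 ± 0.33, both detected on 1 of 3 Cas/ErbB2 arrays. Calls of PROM2, KLK7 and GINS2 were lost with the 6 arrays alone (adjusted p = 0.0505, 0.0725 and 0.068), and the other 12 were kept.

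Genes of DNA replication and nucleotide synthesis fell in part. Of 26 measured members 10 fell, against 2.55% of all items, none rose, and the median was -0.50 against -0.02 for all items. Of these members 9 passed the filter only through the ErbB2 arrays. Over the 17 detected on all 6 arrays 5 fell, with a median of -0.32. TK1, thymidine kinase of the salvage route, read 9.29, 9.35 and 9.53 in ErbB2 and 7.44, 7.11 and 8.17 in Cas/ErbB2, detected on 1 of 3, and fell by 1.81 ± 0.23 (adjusted p = 0.00247). TYMS, thymidylate synthase of the other route, was detected on all 6 arrays, read 11.18, 11.22 and 11.32 in ErbB2 and 10.42, 10.35 and 10.20 in Cas/ErbB2, and fell by 0.91 ± 0.12 (adjusted p = 0.0031). Both thymidylate enzymes were lower on every Cas/ErbB2 array than on any ErbB2 array.

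Subunits of the replicative helicase were among the falls. MCM2 read 8.69, 8.99 and 8.92 in ErbB2 and was undetected in Cas/ErbB2, at least 1.74-fold lower. MCM4 fell by 0.69 and MCM3 by 0.49, while MCM5 (-0.32), MCM6 (-0.24) and MCM7 (-0.41) had negative differences that were not called. GINS2, which ties the helicase to the polymerase, read 9.70, 9.65 and 9.61 in ErbB2 and 7.45, 7.52 and 8.99 in Cas/ErbB2, with Cas/ErbB2 3 near the ErbB2 arrays. The initiation factor MCM10 fell by 1.15 ± 0.16, the clamp PCNA by 0.68, its loader subunit RFC2 by 0.82 and UHRF1, which keeps DNA methylation, by 0.58. MCM10 and GINS2 were each detected on 1 of 3 Cas/ErbB2 arrays, so their falls were measured partly against undetected signal. E2F1 was at -0.09 (adjusted p = 0.83) and CCNE1, cyclin E1, at 0.36. With the 6 arrays alone 4 of the 26 were called lower, and without Cas/ErbB2 replicate 3, 12 were lower and 1 higher.

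Many replication genes are controlled by E2F factors, and the promoters of 4 of the falling genes are shown to place letters of the E2F site. Each is the 250 bases before a RefSeq transcript start (GRCh38.p14), with matches to TTTNNCGC on either strand in capitals. They lie at chr16:85688955-85689204 (GINS2), chr6:52284743-52284992 (MCM3), chr20:5126623-5126872 (PCNA), all on the minus strand, and at chr18:657403-657652 (TYMS, plus strand).
GINS2: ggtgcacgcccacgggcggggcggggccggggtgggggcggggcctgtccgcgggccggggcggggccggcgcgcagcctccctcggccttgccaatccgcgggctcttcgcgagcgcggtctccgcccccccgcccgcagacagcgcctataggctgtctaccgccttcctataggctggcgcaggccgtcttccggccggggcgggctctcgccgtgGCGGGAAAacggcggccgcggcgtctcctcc
MCM3: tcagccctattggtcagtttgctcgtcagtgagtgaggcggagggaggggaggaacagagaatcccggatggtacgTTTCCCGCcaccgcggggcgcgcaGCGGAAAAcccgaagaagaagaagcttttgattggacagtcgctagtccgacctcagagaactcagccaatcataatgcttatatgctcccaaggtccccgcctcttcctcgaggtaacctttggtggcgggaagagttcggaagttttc
PCNA: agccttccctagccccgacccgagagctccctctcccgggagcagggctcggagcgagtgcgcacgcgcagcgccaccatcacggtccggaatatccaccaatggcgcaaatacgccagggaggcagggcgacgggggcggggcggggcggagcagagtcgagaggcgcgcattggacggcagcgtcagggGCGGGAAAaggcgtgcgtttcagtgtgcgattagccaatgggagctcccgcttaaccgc
TYMS: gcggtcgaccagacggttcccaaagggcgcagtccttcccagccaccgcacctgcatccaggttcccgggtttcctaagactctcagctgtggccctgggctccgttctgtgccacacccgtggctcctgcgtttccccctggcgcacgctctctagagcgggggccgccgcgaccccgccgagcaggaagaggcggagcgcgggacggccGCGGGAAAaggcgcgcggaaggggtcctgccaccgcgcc
The first matching base lies 31 bases before the start in GINS2, 59 in PCNA and 39 in TYMS, and MCM3 has matches from 174 and from 150. Of the 10 falling genes 9 had a promoter in the table, and 5 of those 9, the 4 shown and UHRF1, held a match in at least 1 of their promoters (6 of 13 promoters, against 5.9% of all 35116). Over all 26 measured members of the list, 13 of 33 promoters held one, so genes that did not pass the test held it too, E2F1 and MCM7 among them.

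Mitotic genes fell in part, from well-detected levels. Of 31 measured members 6 fell, against 2.55% of all items, none rose, and the median was -0.49. A negative difference was seen for 29 of them and for 5621 of all 10653 items; 28 were detected on all 6 arrays, the 6 falls among them. AURKB, the chromosomal passenger kinase, read 9.50, 9.91 and 9.66 in ErbB2 and 8.22, 8.48 and 8.57 in Cas/ErbB2 and fell by 1.26 ± 0.17 (adjusted p = 0.00406). CDC20, the activator of the anaphase-promoting complex, read 11.41, 11.32 and 11.47 in ErbB2 and 10.67, 10.26 and 10.65 in Cas/ErbB2 and fell by 0.87 ± 0.15. Neither gene's groups overlapped. The kinesin KIF20A fell by 0.73 ± 0.16, cyclin B2 (CCNB2) by 0.66 ± 0.16, survivin (BIRC5) by 0.65 ± 0.14 and the ubiquitin-conjugating enzyme UBE2C by 0.53. CDK1 was at -0.51 (adjusted p = 0.15), TOP2A at -0.43 and CCNB1 at -0.24. With the 6 arrays alone 2 were called, AURKB and CDC20, and without Cas/ErbB2 replicate 3, 16. H4C3, a replication-dependent histone, fell by 1.25 ± 0.24, a call lost with the 6 arrays alone (adjusted p = 0.0642), with the other 9 measured histones not called; these genes are near-identical and a probe may bind transcripts of several.

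Secreted defence proteins fell in part. Of 12 measured acute phase and mucosal defence genes 6 fell, against 2.55% of all items, none rose, and the median was -0.76. The median was -0.42 with 3 genes undetected in Cas/ErbB2 set at their bounds. Of the 12, 6 passed the filter only through the ErbB2 arrays. Over the 6 detected on all arrays 2 fell, with a median of -0.595. C3, the central complement component, read 9.14, 9.31 and 9.43 in ErbB2 and 7.62, 7.67 and 8.18 in Cas/ErbB2, detected on 1 of 3, and fell by 1.47 ± 0.18 (adjusted p = 0.00201). Factor B (CFB), detected on 2 of 3 Cas/ErbB2 arrays, fell by 1.13 ± 0.22 and the elastase inhibitor PI3 by 1.01. C1R, undetected on the Cas/ErbB2 arrays, was at least 1.15-fold lower. SAA2 read 8.44, 7.998 and 8.34 in ErbB2 and was undetected in Cas/ErbB2, at least 1.14-fold lower, and its sequence is so close to SAA1 that the probes may not tell them apart. LCN2 was at -0.73 (adjusted p = 0.31) and SLPI at -0.38 (adjusted p = 0.0999). Of the 12, 4 were called lower with the 6 arrays alone, and without Cas/ErbB2 replicate 3, 7.

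Interferon-stimulated genes had mostly negative differences, 19 of 24 measured, against 5621 of all 10653 items, with a median of -0.45. Of the 24, 3 fell, against 2.55% of all items, and 1 rose. Of these genes 8 were called lower without Cas/ErbB2 replicate 3, and 1, IFI27, with the 6 arrays alone. Of the 24, 11 passed the filter only through the ErbB2 arrays. Over the 12 detected on all 6 arrays none fell and 1 rose, with a median of -0.28. GBP2 fell by 1.31 ± 0.24 and HERC6 by 0.84 ± 0.20, both detected on 1 of 3 Cas/ErbB2 arrays and both lost with the 6 arrays alone (adjusted p = 0.0571 and 0.0841), and IFI27 as above. ISG20, an exonuclease, rose by 0.95 ± 0.17, from 11.001, 10.57 and 10.59 to 11.81, 11.39 and 11.82. Of 14 measured genes of MHC class I presentation 3 fell, against 2.55% of all items, and 13 had a difference under 0, against 5621 of all 10653 items. The peptide transporter TAP1 fell by 0.75 ± 0.15, the proteasome activator PSME2 by 0.68 ± 0.14 and the immunoproteasome subunit PSMB10 by 0.66 ± 0.14. All 3 were detected on every array, and none was called with the 6 arrays alone (adjusted p = 0.0579, 0.058 and 0.0771). B2M was at 0.0018 and HLA-B at -0.22.

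Of 13 S100 proteins 3 fell, against 2.55% of all items. These were S100A7 as above, S100A8 by 0.72 ± 0.12 and S100A9 by 0.55 ± 0.13, the last 2 forming calprotectin. S100A8 read 15.52, 15.32 and 15.36 in ErbB2 and 14.74, 14.54 and 14.78 in Cas/ErbB2, near the top of the signal range in both. S100A7 was the 1 call of the list with the 6 arrays alone: S100A8 and S100A9 were lost (adjusted p = 0.0577 and 0.12), S100A9 also with all 12 arrays (adjusted p = 0.0517). The other S100 genes lay between -0.52 (S100P) and 0.35 (S100A16). KLK5, a skin peptidase that activates KLK7, fell by 1.01 ± 0.21, a call lost with all 12 arrays (adjusted p = 0.0555). So 2 of 3 measured kallikrein list members fell, against 2.55% of all items, and 2 of the 3 passed the filter only through the ErbB2 arrays. Of 12 cornified envelope genes 1 fell, CNFN, by 0.80 ± 0.17, a call lost with the 6 arrays alone (adjusted p = 0.0688). A difference under 0 was seen for 10 of the 12 (median -0.25), against 5621 of all 10653 items.

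Cytokine and developmental signalling genes went both ways. The interleukins IL1A and IL1B rose by 0.99 ± 0.16 and 1.20 ± 0.26, the latter detected on 1 of 3 ErbB2 arrays, whereas CXCL16 fell, among 9 measured cytokines with a median of 0.32. In the Notch list HEY1 rose while the Notch modifier LFNG fell by 1.24 ± 0.27, detected on 1 of 3 Cas/ErbB2 arrays, and HES2 by 0.87 ± 0.16; HES1 was at 0.11 and JAG1 at 0.12. WNT7A, a Wnt ligand, rose by 0.93 ± 0.15, and the Wnt antagonist SFRP1 fell by 0.71 ± 0.12. The TGF-beta co-receptor TGFBR3 fell by 1.06 ± 0.15, ID1 rose by 0.83 ± 0.17 and ID3 fell by 0.73 ± 0.13; both ID genes are known targets of BMP signalling. PTGS1 (cyclooxygenase 1) rose by 0.92 ± 0.16, and PTGES, which makes prostaglandin E2, fell by 0.86 ± 0.17. Calls of IL1B, LFNG, HES2, ID1, ID3 and PTGES were lost with the 6 arrays alone, with adjusted p from 0.0516 (HES2) to 0.0808 (LFNG), and the other calls named here were kept.

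Cell cycle inhibitors and p53 targets were split, with GADD45A up by 1.05 ± 0.18, SESN1 down by 0.99 ± 0.19 and 12 of 14 not called. Among 20 NRF2 targets the aldehyde dehydrogenase ALDH3A1 fell by 0.83 ± 0.12, and GCLC (0.65 ± 0.16), the rate-limiting enzyme of glutathione synthesis, and UGDH (0.56 ± 0.14) rose. Lysosomal CTSB and NPC1 rose by 0.57 ± 0.13 and 0.56 ± 0.12, and CTSA and CTSH fell by 0.54 each. CTSA was detected on 1 of 3 Cas/ErbB2 arrays. The death receptor decoy TNFRSF10D rose by 0.61 ± 0.12, the ephrin EFNA1 fell by 0.52 ± 0.12, RHOB rose by 0.74 ± 0.18, SOD2 fell by 0.59 ± 0.13 and GPAM, an acyltransferase of lipid synthesis, rose by 0.76 ± 0.18. LSS of sterol synthesis fell by 0.66 ± 0.11 on 1 probe, while its other probe was at 0.11 (adjusted p = 0.78), so the probes disagreed. The other probes of SOD2 (-0.37), GPAM (0.50) and CTSB (0.40) had the same sign but were not called (adjusted p = 0.34, 0.11 and 0.15). Those of GADD45A (1.33) and EFNA1 (-1.08) were called in the same direction. GADD45A, ALDH3A1 and LSS kept their calls with the 6 arrays alone, and the other 12 called genes named here lost theirs, with adjusted p from 0.0521 (SESN1) to 0.11 (CTSA). CTSH was also lost with all 12 arrays (adjusted p = 0.0613), and CTSA kept its call under 4 of 21 alternatives.

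Housekeeping groups held few calls. None of 36 cytosolic ribosomal proteins, 35 mitochondrial ribosomal proteins, 27 proteasome subunits or 28 genes of ribosome biogenesis was called, with medians of -0.06, -0.18, -0.05 and -0.18. That changed without Cas/ErbB2 replicate 3, a fit that called 9.19% of all items lower and 6.17% higher. There 8 mitochondrial ribosomal proteins, 2 proteasome subunits and 3 genes of ribosome biogenesis were called lower, and 1 cytosolic ribosomal protein each way. Of 33 subunits of respiratory complexes I to III 32 had a difference under 0, against 5621 of all 10653 items, and the median was -0.21. UQCRB and NDUFB10 fell by 0.72 ± 0.18 and 0.52 ± 0.12, 2 of the 33, against 2.55% of all items. Both calls were lost with the 6 arrays alone (adjusted p = 0.11 and 0.11), that of UQCRB also with all 12 arrays (adjusted p = 0.0504). None of 18 YAP and SRF targets was called, with a median of 0.04, nor any of 6 tight junction genes. Here too the count changed without Cas/ErbB2 replicate 3, with 2 YAP and SRF targets called higher and 3 lower, and 1 tight junction gene lower.

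The Cas arrays gave another level to set beside these differences. For 148 of the 223 items called higher (66.4%), all 3 Cas arrays lay below all 3 ErbB2 arrays, against 11.7% of all items, so the usual order was Cas, ErbB2, Cas/ErbB2. STC2 is such a case, with 8.81, 8.32 and 8.52 on the Cas arrays, and so is SERPINE2, with 10.72, 10.46 and 10.61 against 12.82, 12.55 and 12.86 in ErbB2. For 88 of the 272 items called lower (32.4%) all Cas arrays lay above all ErbB2 arrays, against 10.2% of all items, and for 155 the 2 groups overlapped. CALML3 read 10.55, 10.55 and 10.53 on the Cas arrays and TGFBR3 10.74, 10.63 and 10.67, above ErbB2 in both genes, whereas MCM10 (8.93, 9.01 and 9.13) and ADORA2B (10.54, 10.39 and 10.41) overlapped ErbB2. Both the calls and these orders use the ErbB2 arrays, so they are a description with no test.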

How the data were processed

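Per the labels, trizol-extracted total RNA of 12 MCF10A samples was biotin-labelled and read on Illumina bead arrays. The labels name a Ref-8v2 BeadChip, whereas the deposited table holds 47224 probes, so the array design is uncertain. Per the file headers, the deposited table gives a mean signal per probe, an intensity on a linear scale without normalization, and a detection p-value. The authors' processed table, also an intensity, was used as an alternative only, and the steps behind it are not given in the sources used here. Of the columns with sample values 0 had no match to a sample.

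Samples were grouped by title. The 9 arrays of ErbB2, Cas and Cas/ErbB2 were corrected and quantile normalized with neqc of limma 3.58.1 in R 4.3.3 (background from detection p-values, offset 16) and put on the log2 scale; control arrays, whose labels name separate hybridizations, entered only the alternative fit over all 12 arrays. Probes detected (p under 0.05) on all 3 arrays of ErbB2 or of Cas/ErbB2 were kept (12772 probes), and the brightest stood for its gene. Names came from the platform's annotation, updated by gene ID for 30072 probes; 30111 of all probes had 1 symbol, 8 several and 17105 none. lmFit and eBayes were applied to the 9 arrays, which share 1 estimate of spread, with Benjamini-Hochberg adjustment over all items. The reported fit over the 9 arrays, and none of the alternatives, was run on simulated data. Those data had independent noise of equal spread on every array and skipped background correction and normalization. The run therefore could not check these steps or the effect of an outlying array.

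The text names the 15 largest rises and falls among called genes with groups that did not overlap, without provisional symbols, pseudogenes or an opposite call on another probe; up to 4 called members of each of 50 lists by size; further list members by role; and BCAR1, ERBB2 and NGFR. Members, lists and tests were chosen with earlier results of these data known. Promoters were taken from RefSeq (GRCh38.p14) by symbol. Figures were drawn with matplotlib 3.10.9 in Python 3.11.15.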

Additional observations from a re-analysis of the deposited data

How the results depend on the processing

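Counts of items called higher and lower in Cas/ErbB2, reported as 223 and 272, depended on the processing as follows. Median scaling gave 4 and 9, no detection filter 105 and 82 (of 37158 items tested), the 6 arrays alone 100 and 76, array weights 547 and 914, and trend and robust moderation 305 and 437. By construction an adjusted p under 0.01 gave fewer, 72 and 60, as did a log2 difference of at least 1, 62 and 83. Leaving out 1 array at a time gave 82 to 674 higher and 67 to 1004 lower: the highest counts came without Cas/ErbB2 replicate 3 (674 and 1004), the others being 91 and 67, 82 and 70, and 130 and 128 without ErbB2 1, 2 and 3, 107 and 105, and 112 and 109 without Cas/ErbB2 1 and 2, and 152 and 169, 148 and 178, and 173 and 197 without Cas 1, 2 and 3. The cause of these differences was not tested, although the array weight of Cas/ErbB2 3 was 0.28, against 0.838 to 2.326 for the others. Counts stayed within 1.5 times the reported ones with normexp or no background correction, the authors' processed intensities, a detection threshold of 0.01, detection on all 6 arrays, single probes, probe means and all 12 arrays. The reported fit did not treat same-numbered replicates as paired. Deviations of same-numbered ErbB2 and Cas/ErbB2 arrays correlated at 0.27, -0.05 and 0.15, and those of arrays with unlike numbers at -0.25 to 0.11. Over all pairs of the 3 groups, same-numbered arrays correlated at 0.11 to 0.27 for replicate 1, -0.17 to 0.03 for replicate 2 and 0.15 to 0.20 for replicate 3. A fit with a replicate block gave 221 and 274. Of the 111 named genes only BCAR1 changed sign, with differences of -0.405 (without ErbB2 replicate 3) to 0.0876 (adjusted p = 0.885, without ErbB2 replicate 1); 100 lost their call under median scaling and 50 with the 6 arrays alone, but none without Cas/ErbB2 replicate 3. List counts with the 6 arrays alone and without Cas/ErbB2 replicate 3 were added after the data were seen, as was the fit to the 5 remaining ErbB2 and Cas/ErbB2 arrays (555 higher and 876 lower).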
